A study of Mus musculus with 15 samples.

Results

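The Cyp2d genes encode cytochrome P450 enzymes of the CYP2D subfamily, and 9 of them, listed by name, were followed in mouse liver: Cyp2d9, Cyp2d10, Cyp2d11, Cyp2d12, Cyp2d13, Cyp2d22, Cyp2d26, Cyp2d34 and Cyp2d40. The count table held 37991 gene identifiers, and 8 of the 9 members were found among them; no identifier was matched to Cyp2d13, which was not analysed here. The genes are a family taken whole by name, but they were selected on earlier results of these data, chiefly the fall of the Cyp2d9 count from young WT to old WT livers, so the age values of Cyp2d9 are given as a description and carry no p-value.

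RNA sequencing was performed on whole livers of young (90 d) S6K1 WT mice, old (600 d) S6K1 WT mice and old (600 d) S6K1 KO mice, with 5 livers in each group. All animals were females of the inbred C57BL/6 strain fed chow, and the KO allele is a loss of Rps6kb1, the gene of ribosomal S6 kinase 1, in every tissue rather than in hepatocytes alone. No young KO livers were analysed here, so genotype was compared at 600 d alone. Old KO and young WT livers differ in both age and genotype, and a difference between these groups cannot be assigned to either. The questions were how the livers of WT mice change with age and how loss of S6K1 alters the livers of old mice. In the text, young WT, old WT and old KO stand for these groups, and a number after the name is the replicate number of the library.

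P450 enzymes sit in the membrane of the endoplasmic reticulum, carry a haem group and insert oxygen into steroids, fatty acids and drugs, with electrons passed on from NADPH by the reductase Por. The CYP2D subfamily is best known for the human drug-metabolizing enzyme CYP2D6. Mice carry a whole cluster of Cyp2d genes, of which Cyp2d9 encodes a testosterone hydroxylase that is known for its higher level in male liver under the control of growth hormone and STAT5.

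Library totals ranged from 21801754 (young WT 6) to 38065359 (young WT 1) counts. Rps6kb1 itself was measured at 38.3 ± 3.14 CPM (counts scaled to the effective library size; mean ± SD, n = 5) in young WT, 38.4 ± 4.21 in old WT and 17 ± 2.23 in old KO livers, and no old KO library reached the lowest WT library. Of 12 hepatocyte markers 11 were found, and none was at 0 throughout a group. By edgeR 3 were called with age and none with genotype (1 at an unadjusted p under 0.05). With genotype DESeq2 called 1 and limma voom 0. Hepatocyte marker sums had a median of 146000 CPM among young WT libraries (range 102000 to 156000). The median was 118000 CPM for old WT (114000 to 163000) and 138000 CPM for old KO (136000 to 173000). Old WT 7, at 163000 CPM, made these 2 ranges overlap. All other old WT libraries, at 114000 to 125000 CPM, were below every old KO library. The part of this difference in the Cyp2d values was not tested. Macrophage markers summed to 264 to 622 CPM in old WT libraries but to 156 to 245 CPM in old KO libraries, with no overlap, and to 200 to 447 CPM in the young ones; 5 of the 10 were lower in old KO against old WT by edgeR, 7 by DESeq2 and 1 by limma voom. Over all genes tested edgeR called 18.8% with age and 0.533% with genotype. In bulk tissue, fewer cells of a type and less RNA per cell cannot be told apart.

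All 8 genes found are protein-coding and lie in one cluster on mouse chromosome 15 (build mm9, annotation GENCODE M1). On the minus strand, Cyp2d22 (ENSMUSG00000061740) spans chr15:82200958-82210690, Cyp2d11 (ENSMUSG00000068085) chr15:82219584-82224452 and Cyp2d10 (ENSMUSG00000014372) chr15:82233276-82237624. Cyp2d9 (ENSMUSG00000068086) at chr15:82282807-82287257 and Cyp2d12 (ENSMUSG00000057138) at chr15:82385538-82389843 follow on the plus strand. Cyp2d34 (ENSMUSG00000062185) at chr15:82446395-82451337, Cyp2d40 (ENSMUSG00000068083) at chr15:82590265-82594613 and Cyp2d26 (ENSMUSG00000022445) at chr15:82620537-82624675 are again on the minus strand.

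The coding sequences of these genes are close relatives, which bears on how well short reads can be assigned. Aligned coding sequences of Cyp2d9 were identical to those of Cyp2d11 at 93.3%, of Cyp2d10 at 92.5%, of Cyp2d12 at 92.1% and of Cyp2d34 at 89.6% of bases. Cyp2d26 at 81.8% and Cyp2d22 at 78.7% were more distant from Cyp2d9. The closest pair was Cyp2d10 and Cyp2d11, at 94.7%. Cyp2d40 matched Cyp2d9 at 84.8%, over an annotated coding model of 1017 bases against 1515 bases for Cyp2d9.

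Reads were 50 bases long, so each transcript was cut into all its 50-base windows. Windows with no second place in the genome and no copy in another gene's transcript were counted as windows at one place. That count includes windows across exon junctions, which have no unbroken copy in the genome. Cyp2d22 with 93.8% and Cyp2d26 with 89.1% of windows at one place were best identified. Cyp2d34 had 87.5%, Cyp2d12 82%, Cyp2d9 70.3%, Cyp2d40 68.9%, Cyp2d11 63.5% and Cyp2d10 61.6% of such windows. Cyp2d9 shared 178 of its 1602 windows with Cyp2d12, 154 with Cyp2d10 and 108 with Cyp2d11. How the authors' counting treated reads from such windows is not given in the sources used here, so the levels of the close pairs are uncertain to that extent.

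**Figure D1:**
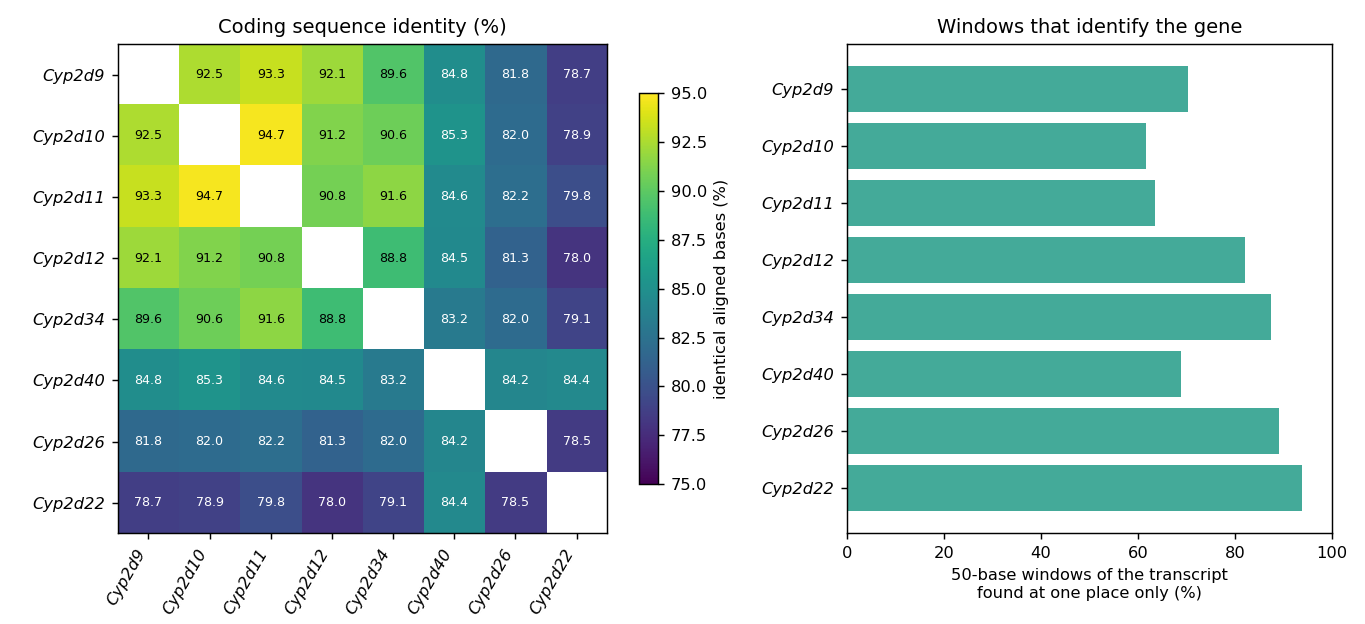
Left, percent identity of aligned coding sequence for each pair of the 8 Cyp2d genes (colour and printed value). Right, bars of the percentage of 50-base windows of each transcript with no second copy in the genome or in another gene's transcript, from 61.6% for Cyp2d10 to 93.8% for Cyp2d22.

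The stretch that ties Cyp2d9 most closely to Cyp2d10 is shown because reads from it cannot be told apart over most of its length. It covers bases 298 to 501 of the coding sequence, is 204 bases long and holds a run of 164 identical bases. In Cyp2d9 it lies in exon 2 (chr15:82284136-82284199) and exon 3 (chr15:82284468-82284607) of 9, plus strand, and in Cyp2d10 in exon 2 (chr15:82236337-82236400) and exon 3 (chr15:82235929-82236068) of 9, minus strand, all in mm9. Sequences read 5′ to 3′ along the transcript, and capitals mark the 3 bases that differ.
Cyp2d9: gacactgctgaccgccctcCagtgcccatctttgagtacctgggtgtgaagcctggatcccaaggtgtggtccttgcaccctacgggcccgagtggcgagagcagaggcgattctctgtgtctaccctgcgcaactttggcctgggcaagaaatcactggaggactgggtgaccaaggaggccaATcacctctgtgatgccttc
Cyp2d10: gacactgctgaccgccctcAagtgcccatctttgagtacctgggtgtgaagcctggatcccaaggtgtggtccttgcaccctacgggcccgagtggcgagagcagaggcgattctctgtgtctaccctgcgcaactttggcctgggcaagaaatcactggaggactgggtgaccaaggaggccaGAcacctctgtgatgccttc

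Per kilobase of exon, a scale on which genes can be compared, Cyp2d26 was the most abundant member in every group, with a mean level of 452 CPM per kb in young WT, 557 in old WT and 596 in old KO livers. Cyp2d10 came next at 188, 145 and 164 CPM per kb, then Cyp2d22, often regarded as the mouse counterpart of human CYP2D6, at 63.8, 57.8 and 70 CPM per kb. In each group the libraries of Cyp2d26 did not overlap those of Cyp2d10, nor did those of Cyp2d10 overlap those of Cyp2d22.

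The middle of the order differed between young and old livers. In young WT livers Cyp2d9 (27.4 CPM per kb) stood above Cyp2d40 (21.3 CPM per kb), with overlapping libraries, and its highest library overlapped the lowest of Cyp2d22. In old WT livers Cyp2d40 stood at 31.7 and Cyp2d9 at 2.15 CPM per kb without overlap, and in old KO livers at 33.3 and 6.52 CPM per kb, again without overlap. Cyp2d9 then overlapped Cyp2d34, which held 1.51, 1.54 and 1.64 CPM per kb in young WT, old WT and old KO livers. Cyp2d12 and Cyp2d11 were last in all 3 groups, at 0.0965 to 0.18 CPM per kb, and overlapped each other.

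**Figure D2:**
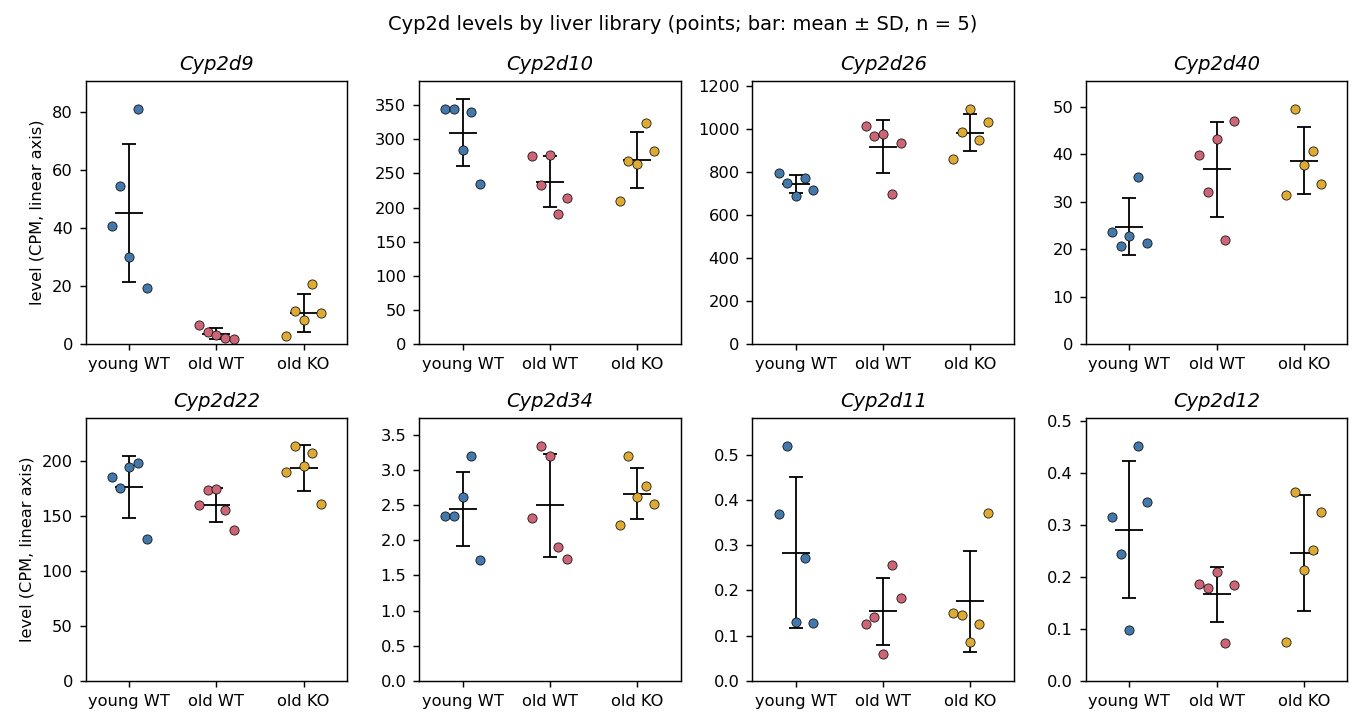
Level of each Cyp2d gene in CPM (linear axes starting at 0, a separate scale for each gene) in the 5 libraries of young WT, old WT and old KO livers; points are libraries and bars the mean ± SD. All 5 old WT points of Cyp2d9 lie below its lowest young WT point of 19.5 CPM, whereas for the other genes these groups overlap.

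Cyp2d9, the testosterone hydroxylase, was the member whose level differed most with age. In young WT livers it was measured at 40.9, 54.6, 30, 81.1 and 19.5 CPM (replicates 1, 2, 3, 4 and 6), a mean of 45.2 ± 23.9. In old WT livers it was at 6.47, 4.2, 3.22, 1.98 and 1.91 CPM (replicates 1, 4, 5, 7 and 10), a mean of 3.55 ± 1.88. Every old WT library was below every young WT library, and the young libraries themselves spread widely, with replicate 4 highest and replicate 6 lowest. The fitted difference was a 12.6-fold decrease, a log2 fold change of -3.66 (SE 0.493, 95% interval -4.71 to -2.62), the 7th lowest of the 14258 genes tested. This gene was known for that difference when the list was made, and the value is a description.

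The old KO livers held Cyp2d9 at 2.77, 11.4, 8.27, 20.7 and 10.7 CPM (replicates 1, 2, 4, 5 and 6), a mean of 10.8 ± 6.51. Replicates 2, 4, 5 and 6 were above all old WT libraries, replicate 1 lay among them, and replicate 5 passed the lowest young WT library. The old KO mean was 3-fold the old WT mean by the fit, a log2 fold change of 1.59 (SE 0.478, 95% interval 0.57 to 2.6), and was not called (edgeR adjusted p = 0.168). Without old KO 1 it was 1.83 with an edgeR adjusted p of 0.0769. Both p-values use the old WT libraries on whose low Cyp2d9 level the list was selected, which favours a higher old KO value. Against young WT, the old KO level was 4.21-fold lower (log2 fold change -2.07, SE 0.454), a value that shares its young libraries with the age difference.

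Because Cyp2d9 and Cyp2d10 share windows, their counts were also set against each other within each library. Cyp2d9 counts amounted to 8.36% to 23.9% of Cyp2d10 counts in the young libraries. The ratio was 0.892% to 2.35% in old WT libraries, against 1.32% to 6.39% where S6K1 was lost. The ratio did not overlap between young WT and either old group. Its numerator is the Cyp2d9 count on whose fall from young WT to old WT the list was selected. The separation of those groups is thus a description and no further check. No correction for shared reads was made.

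Cyp2d10, the second most abundant member, was at 344, 344, 285, 340 and 234 CPM in young WT livers (309 ± 49.2). It was at 275, 233, 277, 191 and 214 CPM in old WT livers (238 ± 37.9). In old KO livers it was at 210, 268, 264, 324 and 283 CPM (270 ± 41.1). The groups overlapped, with 3 of 5 old WT libraries below all young WT libraries. The log2 fold change with age was -0.38 (SE 0.138, 95% interval -0.67 to -0.09), just outside the threshold with an edgeR adjusted p of 0.0658. For old KO against old WT it was 0.18 (95% interval -0.11 to 0.47, edgeR adjusted p = 0.668), and for old KO against young WT -0.2 (adjusted p = 0.317).

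Cyp2d26, the most abundant member, had values in the opposite direction with age. It was at 795, 750, 689, 772 and 716 CPM in young WT livers (744 ± 42.5). Old WT livers held 1010, 966, 973, 699 and 935 CPM (916 ± 124). Old KO livers held 859, 983, 1090, 945 and 1030 CPM (980 ± 86). Among old WT libraries 4 were above all young WT libraries, while old WT 7 lay at the bottom of the young range, and all 5 old KO libraries were above all young WT libraries.

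The log2 fold change of Cyp2d26 with age was 0.3 (SE 0.102, 95% interval 0.08 to 0.51) with an edgeR adjusted p of 0.0505, which misses the threshold of 0.05. Without old WT 7 it was 0.39 with an edgeR adjusted p of 0.00541. Over the 15 fits leaving out 1 library, 2 passed, with edgeR adjusted p-values from 0.00541 to 0.115. Of 8 other settings 3 passed, with adjusted p-values (edgeR, DESeq2 or limma voom) from 0.0189 to 0.0931. For old KO against young WT, where age and genotype both differ, Cyp2d26 was higher by 0.4 on the log2 scale (SE 0.102, edgeR adjusted p = 0.0112). Between old KO and old WT the difference was 0.1 (95% interval -0.12 to 0.31, edgeR adjusted p = 0.782).

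Cyp2d40 was at 23.7, 20.7, 22.9, 35.3 and 21.3 CPM in young WT livers (24.8 ± 6.02). It was at 39.8, 32.1, 43.2, 22 and 47.1 CPM in old WT livers (36.9 ± 9.98). Old KO livers held 31.5, 49.5, 37.7, 40.7 and 33.7 CPM (38.6 ± 7.03). Again old WT 7 lay within the young range, and young WT 4 stood above the other young libraries. Cyp2d40 rose with age, by 0.57 on the log2 scale (SE 0.192, 95% interval 0.16 to 0.98, edgeR adjusted p = 0.048). Between old KO and young WT livers, which differ in age and genotype, it was higher by 0.64 in old KO (edgeR adjusted p = 0.0254). Old KO and old WT differed by 0.07 (95% interval -0.34 to 0.47, edgeR adjusted p = 0.94).

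The age call of Cyp2d40 was marginal. It held when replicate 4 of young WT, replicate 7 of old WT, or replicate 1 or 2 of old KO was left out and was lost without any of the other 11 libraries, with edgeR adjusted p-values from 0.00799 to 0.114 over the 15 fits. The call against old KO was lost without young WT 1, 2 or 3 or old KO 2 or 5.

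Cyp2d22 was at 186, 176, 195, 198 and 129 CPM in young WT livers (177 ± 27.7). It was at 160, 174, 175, 156 and 137 CPM in old WT livers (160 ± 15.7) and at 190, 214, 196, 208 and 161 CPM in old KO livers (194 ± 20.7). Among old KO libraries, 4 of 5 were above every old WT library, and replicate 6 was not. Loss of S6K1 gave a log2 fold change of 0.28 at 600 d (SE 0.114, 95% interval 0.03 to 0.52), with an edgeR p of 0.028 before and 0.345 after adjustment over all genes. With age it was -0.14 (95% interval -0.38 to 0.1, edgeR adjusted p = 0.409).

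The remaining genes were expressed at a low level. Cyp2d34 had means of 2.44 ± 0.531 CPM in young WT, 2.5 ± 0.737 in old WT and 2.66 ± 0.363 in old KO livers, and its intervals were -0.4 to 0.46 with age and -0.34 to 0.52 with genotype on the log2 scale (edgeR adjusted p = 0.942 and 0.922). Cyp2d11 had 47, 22 and 21 counts and Cyp2d12 had 46, 25 and 30 counts in all 5 young WT, old WT and old KO libraries together, too few for the fit across genes. Exact 2-sided permutation tests of their log2(CPM + 0.1) gave p between 0.119 and 0.738 in 6 comparisons, and adjusted p between 0.441 and 0.738, where the smallest p possible was 0.00794. No difference in these 2 genes was detected at this depth.

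**Figure D3:**
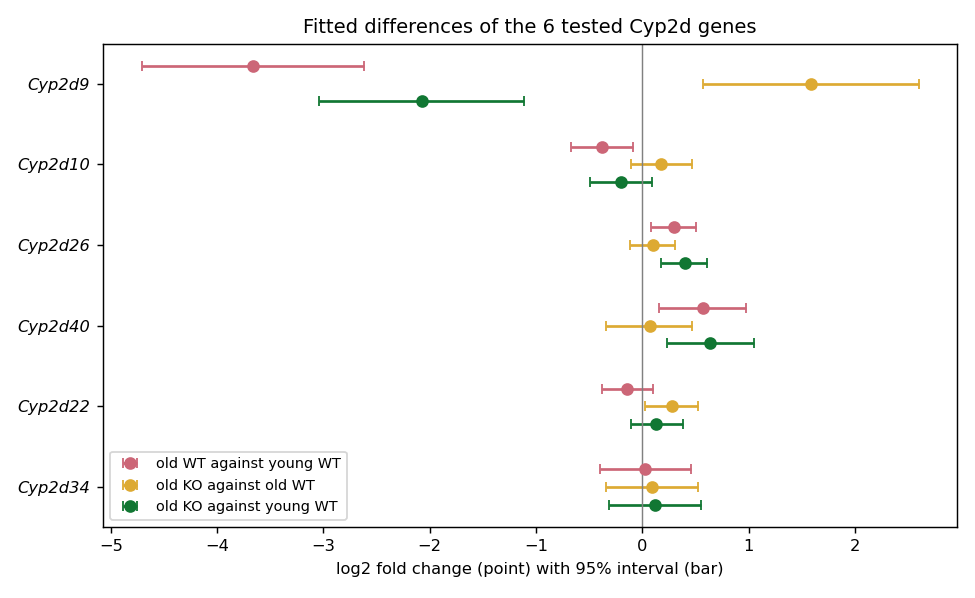
Fitted log2 fold change (points) with its 95% interval (bars) for the 6 Cyp2d genes that passed the filter on low counts, in old WT against young WT, old KO against old WT and old KO against young WT livers. The age difference of Cyp2d9 at -3.66 stands far from those of the other genes, which lie between -0.38 and 0.57; the 3 comparisons share libraries.

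Counted over the family, 6 of the 8 genes found passed the filter on low counts and 2 did not. With age edgeR called 1 of the 5 tested members other than Cyp2d9 at an adjusted p under 0.05, Cyp2d40, which was higher, where 18.8% of all genes tested were called, 8.91% lower and 9.92% higher. Cyp2d9 was left out of that count because the list was selected on its difference. None of these 5 had groups without overlap, where 11.4% of all genes did.

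Between old KO and old WT livers edgeR called none of the 6, where 0.533% of all genes were called, and no member had groups without overlap, where 3.2% of all genes did. DESeq2 and limma voom called none either, and 2 members had an unadjusted edgeR p under 0.05, namely Cyp2d9 and Cyp2d22. The Cyp2d9 value rests on the old WT libraries that entered the selection of the list. All 6 fitted differences were above 0, from 0.07 to 1.59 on the log2 scale, but the members share libraries and, in part, reads. That direction was not particular to them. Above 0 were also 26 of 29 other Cyp2 genes tested (median 0.35) and 9 of 11 hepatocyte markers (median 0.21). The value of Cyp2d34 was below 0 without old WT 10, and that of Cyp2d40 without old WT 7 or old KO 2. The macrophage markers differed between the same libraries without overlap, and their part in these values was not tested. In old KO against young WT livers 2 of the 5 members other than Cyp2d9 were called, Cyp2d26 and Cyp2d40, both higher, against 23.3% of all genes (11.3% lower and 12% higher); Cyp2d26 alone had groups without overlap, against 13.9% of all genes. The median log2 fold change over the 6 was -0.06 with age and 0.14 with genotype, beside 0.008 and 0.001 over all genes tested. The age median includes the Cyp2d9 value on which the list was selected, and the other 5 lay between -0.38 and 0.57. Its sign is thus not read as a result for the family.

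The comparisons share libraries, with each group entering 2 of the 3, so their values are given side by side and not related to each other. Single libraries also took the extremes of several members at once. Young WT 6, the library with the fewest counts and the lowest hepatocyte marker level of its group (102000 against 145000 to 156000 CPM), was lowest in its group for 4 of the 6 tested members. Old WT 7, with the highest hepatocyte marker level of its group (163000 against 114000 to 125000 CPM), was lowest for Cyp2d10, Cyp2d26 and Cyp2d40. Old KO 1 was lowest for 5 of the 6, all but Cyp2d22. The part of depth or cell make-up in these values was not tested.

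A sum over the 8 genes is less open to how reads were divided between them. Reads that were dropped, or shared with loci outside the sum, still bear on it. The summed level was 1303 ± 128 CPM in young WT, 1357 ± 171 in old WT and 1497 ± 116 in old KO livers. The groups overlapped, and the log2 ratio of the means was 0.06 with age and 0.14 with genotype, given as a description. Leaving out 1 library moved the first to between 0.01 (without young WT 6) and 0.13 (without old WT 7), and the other to between 0.07 (without old WT 7) and 0.19 (without old KO 1). On the per-kilobase scale, Cyp2d26 made up 60.2% of the family in young WT, 70% in old WT and 68.4% in old KO livers. The share of Cyp2d10 was 24.8%, 18.2% and 18.8%, and that of Cyp2d9 was 3.53%, 0.264% and 0.733%.

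**Figure D4:**
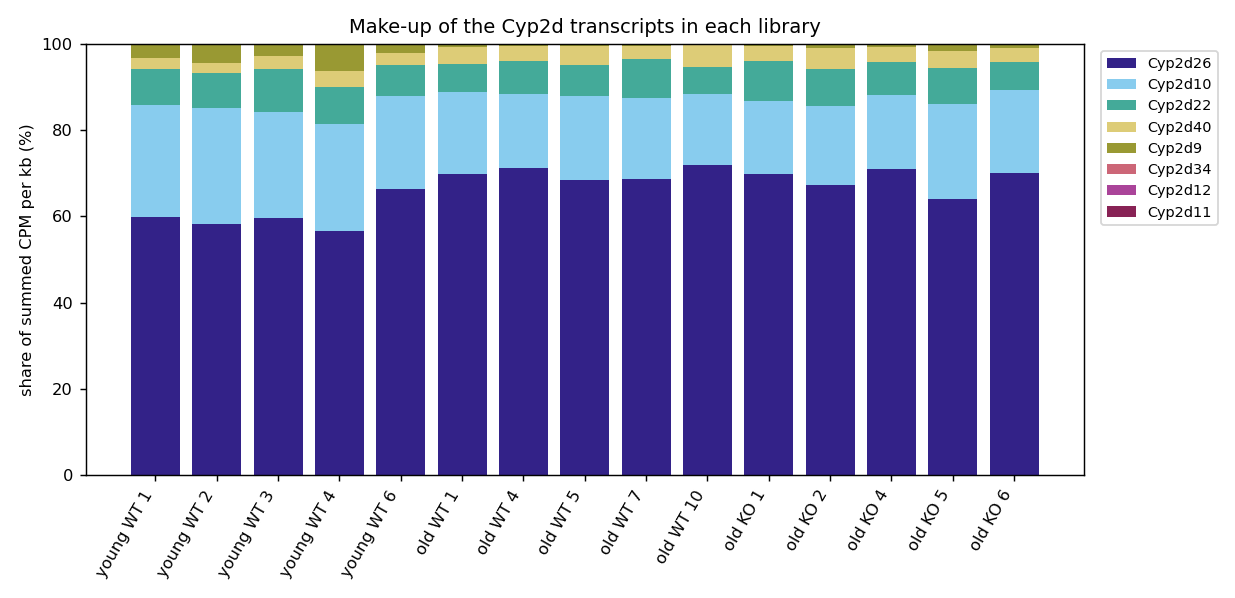
Share of each Cyp2d gene in the summed CPM per kb of the family (%), 1 stacked bar for each of the 15 libraries. The Cyp2d9 band narrows from 1.8% to 5.93% in young WT libraries to 0.146% to 0.447% in old WT libraries, and lies at 0.224% to 1.4% in old KO libraries; Cyp2d34, Cyp2d11 and Cyp2d12 are too low to be seen.

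Genes whose pattern over the 15 libraries was most like that of Cyp2d9 were sought among 12119 genes with a mean of at least 1 CPM. The closest were Susd4, a membrane protein with complement-type sushi domains (Pearson r = 0.939 of log2 CPM), and Mup3, a major urinary protein (r = 0.932). Hyal1, a hyaluronidase, followed at 0.913, Dirc2 at 0.906 and Dpy19l1 at 0.902. Among the other members Cyp2d10 was most like Cyp2d9 (r = 0.848), while Cyp2d26 was at -0.383 and Cyp2d40 at -0.36. Cyp2d9 and Cyp2d10 share windows, and the 15 libraries include the young and old WT values on which the list was selected. The points fall into 3 groups and share library depth and composition, so these values are descriptions over 15 libraries without a p-value.

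Susd4 was at 1.6 to 7.71 CPM in the young livers, 0.331 to 0.781 in old WT livers and 0.262 to 1.93 in old KO livers. Mup3 was at 1010 to 2360, 98.1 to 619 and 209 to 1060 CPM in the same order. Mup3 has near-identical relatives, and its count is uncertain for that reason. In both genes, as in Cyp2d9, young WT 4 was the highest young library, young WT 6 the lowest young library, old KO 5 the highest old KO library and old KO 1 the lowest old KO library.

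**Figure D5:**
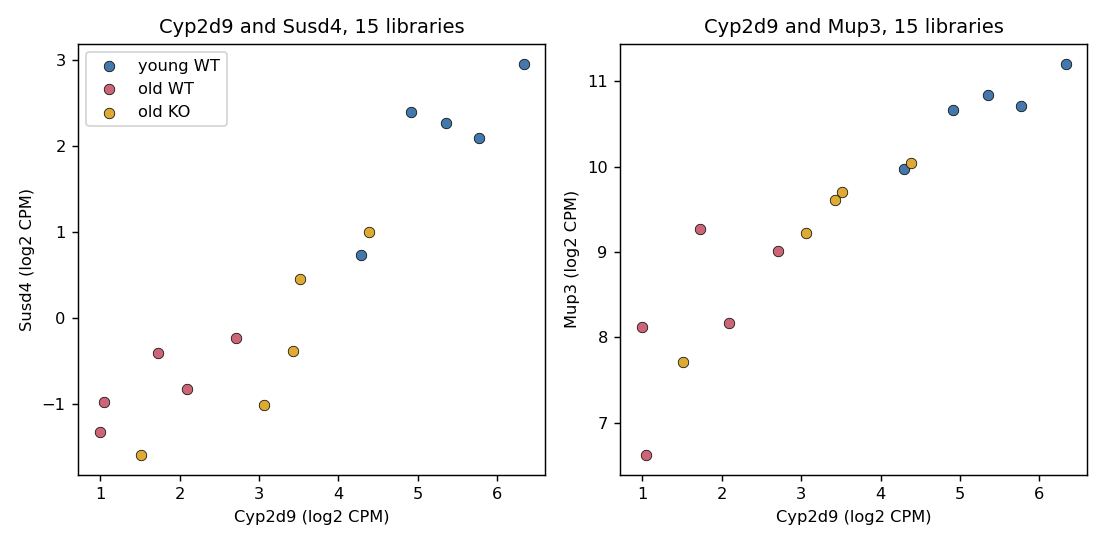
Level of Susd4 (left) and Mup3 (right) against that of Cyp2d9, both in log2 CPM, with 1 point for each of the 15 libraries coloured by group. Old KO 5 lies beside the lowest young WT point, young WT 6, in both panels, and old KO 1 lies within the old WT range for Mup3 and below it for Susd4.

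For Cyp2d26 the closest genes were Mrpl14, of the mitochondrial ribosome (r = 0.929), Hsd11b1, which regenerates active glucocorticoid (r = 0.927), Fkbp8 (r = 0.926), C8g, a complement component (r = 0.92), and Txnrd2, the mitochondrial thioredoxin reductase (r = 0.919). Cyp2d40 was the member most like it (r = 0.816), and Cyp2d10 was at 0.001.

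Promoter sequences of 5 members, Cyp2d9, Cyp2d10, Cyp2d11, Cyp2d26 and Cyp2d40, were matched in RefSeq (build GRCm38.p6). The 250 bases before the start site are printed for 3 of them, Cyp2d9, the member with the pattern closest to it, and the most abundant member. They are chr15:82452127-82452376 on the plus strand for Cyp2d9, and chr15:82407195-82407444 for Cyp2d10 and chr15:82794246-82794495 for Cyp2d26 on the minus strand. Capitals mark a TATA box (TATAAA on either strand, here TTTATA) and a direct repeat of the nuclear receptor type (DR1, searched on either strand as AGGACAAAGGGCA with any base at its positions 4 and 11), the latter chosen after the sequences were seen.
Cyp2d9: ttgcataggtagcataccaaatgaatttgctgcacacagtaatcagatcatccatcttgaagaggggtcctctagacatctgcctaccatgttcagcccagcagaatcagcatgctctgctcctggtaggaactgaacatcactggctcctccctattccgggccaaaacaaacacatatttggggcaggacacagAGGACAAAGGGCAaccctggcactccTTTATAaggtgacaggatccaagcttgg
Cyp2d10: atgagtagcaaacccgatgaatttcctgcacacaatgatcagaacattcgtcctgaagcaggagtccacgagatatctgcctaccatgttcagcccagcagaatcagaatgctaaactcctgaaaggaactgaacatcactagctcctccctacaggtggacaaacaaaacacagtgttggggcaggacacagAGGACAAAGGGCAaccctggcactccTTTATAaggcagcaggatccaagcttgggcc
Cyp2d26: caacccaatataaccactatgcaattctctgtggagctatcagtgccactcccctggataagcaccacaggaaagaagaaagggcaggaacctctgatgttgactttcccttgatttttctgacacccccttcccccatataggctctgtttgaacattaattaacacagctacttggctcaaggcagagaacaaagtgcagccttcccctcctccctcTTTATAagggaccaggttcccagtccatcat

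Cyp2d9 and Cyp2d10 were identical at 85% of aligned promoter bases, Cyp2d9 and Cyp2d11 at 93.6%, Cyp2d9 and Cyp2d40 at 80.2%, and Cyp2d9 and Cyp2d26 at 64.8%. The letters AGGACAAAGGGCA stood at -54 to -42 from the start of Cyp2d9, at -57 to -45 in Cyp2d10 and at -117 to -105 in Cyp2d40, and not in Cyp2d26 or Cyp2d11. Of 32851 promoter windows of the same length, 31 (0.0944%) held the DR1 letters and 12.4% held TATAAA on either strand. None of the 5 promoters held the exact letters TTCNNNGAA (STAT5, 7.02% of all), CAAAGTCCA (HNF4A, 0.384%) or TTGCNNAA (C/EBP, 9.56%). Such a search misses other forms of a site, so lack of the letters is not lack of a site for the factor. HNF4A is itself a nuclear receptor, and the DR1 letters were counted apart from it. Cyp2d40, whose pattern was closer to that of Cyp2d26, held the DR1 letters and Cyp2d26 did not.

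The genes that serve P450 enzymes were examined as a list of 14 for electron transfer and haem supply. With age 4 rose, 2 fell and 8 did not pass. Those that fell were Alas1, which starts haem synthesis (log2 fold change -1.45, SE 0.272, edgeR adjusted p = 0.00266), and Por, the reductase that feeds all these P450 enzymes (-0.88, SE 0.206, adjusted p = 0.0089). Cyb5b, an outer mitochondrial cytochrome b5, rose by 0.75 (adjusted p = 0.00435). The list median was 0.18, beside 0.008 over all genes tested, of which 9.92% rose and 8.91% fell with age. These shares, and the 0.533% called with genotype, apply to each list below. With genotype 1 of the 14 was called, Hmox1, which degrades haem and fell by 0.85 (edgeR adjusted p = 0.0484; called by DESeq2 too and not by limma voom), in the libraries where macrophage markers were also lower. That Hmox1 value was not separated from the macrophage level and their relation was not tested.

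Of 15 transcription factors and other regulators known from studies of Cyp2d genes, 2 rose, 1 fell and 12 did not pass with age (median -0.13). Of all genes tested 18.8% were called with age. Rsl1, a zinc finger repressor known for restraining Cyp2d9 and other male-type liver genes, was at 1.51 ± 0.194 CPM in young WT, 2.6 ± 0.385 in old WT and 2.18 ± 0.173 in old KO livers, and rose by 0.78 with age (edgeR adjusted p = 0.00231). Gabpb1, a subunit of the GABP factor, fell by 0.39 (adjusted p = 0.0164), and Cebpa, a hepatocyte factor, rose by 0.33 (adjusted p = 0.0453). With genotype edgeR called none of the 15, with 3 at an unadjusted p under 0.05, and neither DESeq2 nor limma voom called any.

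In the growth hormone to STAT5 list of 11 genes, 4 rose with age and none fell (median 0.28), where 9.92% of all genes rose. Prlr, the prolactin receptor, rose by 0.88, Ghr, the growth hormone receptor, by 0.81 and Igfals, which carries IGF1 in blood, by 0.66 (edgeR adjusted p = 0.0043, 0.00618 and 0.00506). With genotype none of the 11 was called by edgeR, DESeq2 or limma voom or had an unadjusted edgeR p under 0.05, and the median was 0.

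Cyp2d9 belongs by reputation to the male-biased liver genes, and a list of 16 others was examined in these females. Of the 16, 10 passed the filter on low counts. With age 4 of these fell, among them Susd4 (log2 fold change -3.08), Slco1a1, an organic anion transporter (-1.81), and Cyp2u1 (-1.08), with edgeR adjusted p-values of 0.00071, 0.0124 and 0.0477. The list median was -0.7, and 8.91% of all genes tested fell with age. With genotype none of the 10 was called by edgeR (4 at an unadjusted p under 0.05) or limma voom, DESeq2 called 2, and the median was 0.03.

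Of 22 female-biased liver genes, 9 rose, 3 fell and 10 did not pass with age (median 0.83), where 9.92% of all genes rose and 8.91% fell. Cyp3a41b, a female-type P450, rose by 4.87 and A1bg by 4.61 on the log2 scale, while Sult3a1, a sulfotransferase that is likewise female-biased, fell by 4.8 (edgeR adjusted p = 0.00562, 0.00237 and 0.000108). With genotype Sult3a1 rose by 3 and the P450 gene Cyp2c40 by 0.65 (both edgeR adjusted p = 0.0223), and 20 of the 22 did not pass. Female-biased genes thus moved in both directions with age, and Cyp3a41b has a near-identical relative that makes its count uncertain. As a check of the labelled sex, Xist was at 773 to 1270 CPM. Of 4 Y-linked genes Ddx3y and Kdm5d were at 0 in every library, Eif2s3y reached at most 0.0326 CPM, and Uty was at 0.259 to 0.713 CPM.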

How the data were processed

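Livers of 15 female mice were sequenced as stranded poly(A) libraries with single 50-base reads. The authors aligned reads to mm9 by TopHat (TopHat2 2.0.11 in the submitters' processing notes) and deposited raw HTSeq counts for each gene, neither normalized nor pooled. The annotation, the strand setting and the treatment of reads with several matches are not given in the sources used here. Reads from near-identical Cyp2d genes may thus be missing or counted for a relative, and poly(A) selection leaves out RNA without a tail.

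Sample titles gave the groups and replicate numbers. TMM scaling was done with edgeR 4.0.16 (R 4.3.3), and genes were filtered with filterByExpr, which kept 14258 genes. A quasi-likelihood model of group was fitted to all 15 libraries, 3 contrasts were taken, and p-values were adjusted by Benjamini-Hochberg over all genes tested (threshold 0.05). Log2 CPM used a prior count of 2. P-values set a difference between groups against the spread between these libraries. The labels give no sequencing batch. All 30 pairs of libraries within groups differed beyond sampling noise. Alternatives were DESeq2 1.42.0, limma voom (limma 3.58.1), other scalings and filters, the contrast's own libraries alone, a replicate block and leaving out each library. For genes under the filter, the exact permutation test used log2 of CPM plus 0.1 and 252 assignments.

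The members, lists and tests were chosen with earlier results of these data known. Genes were matched by GENCODE M1 symbols. The named genes are the members, Rps6kb1, the 5 genes most correlated with Cyp2d9 and with the most abundant member, and the 3 largest called changes of each list. Marker lists of T cells, B cells, endothelium, stellate cells and bile duct were measured too; with age edgeR called 2 of 6, 1 of 5, 2 of 6, 2 of 7 and 1 of 5 (limma voom none of the T cell or B cell markers), and with genotype none in any (1 T cell and 1 B cell marker at an unadjusted p under 0.05; none by DESeq2 or limma voom).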

Additional observations from a re-analysis of the deposited data

Results flagged for a closer look

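Within each group of 5 livers, the highest or lowest library was compared with its nearest neighbour for the 8 Cyp2d genes and for their sum. Of 27 groups tested 5 held a library far from the others, where chance gives about 1 in 20. In old WT livers Cyp2d26 was at 699 CPM in replicate 7, with the next library at 935 CPM. Cyp2d12 was at 0.0733 CPM in the same library, with the next at 0.178, values that rest on a few counts. In young WT livers Cyp2d40 was at 35.3 CPM in replicate 4, with the next at 23.7 CPM. In old KO livers Cyp2d11 was at 0.371 CPM in replicate 6, with the next at 0.15, again on a few counts. The summed Cyp2d level was 1296 CPM in old KO replicate 1, with the next at 1516 CPM.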

How the results depend on the processing

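Of 414 results for single genes under other settings, 378 kept their direction and their side of the threshold. Counting Cyp2d9, 2 members were called with age, 4 with DESeq2 (adding Cyp2d10, adjusted p = 0.0371, and Cyp2d26, 0.0189), and 1 with limma voom, without a filter on low counts, with the contrast's 10 libraries alone or with a replicate block; over the fits leaving out 1 library it was 1 to 3. Livers of the same replicate number showed no sign of pairing (correlations of deviations -0.153 to 0.077), and pairing by other means was not tested. With the block the Cyp2d40 difference of old KO from young WT was no longer called (0.58, adjusted p = 0.0624). In that contrast this took the members called, Cyp2d9 included, from 3 to 2. The genotype difference with the block was 0 for Cyp2d26 and -0.09 for Cyp2d34. Leaving out 1 library gave -0.09 to 0.13 for Cyp2d34 with age, and with genotype -0.02 to 0.21 for Cyp2d34 and -0.08 to 0.17 for Cyp2d40. The fall of Cyp2d9 was -3.99 to -3.35 without 1 library. Its genotype difference was 1.18 to 1.92 over all settings and never passed (adjusted p 0.0618 to 0.547). Cyp2d10 passed with age without young WT 6 (-0.46, edgeR adjusted p = 0.022) and in no other fit leaving out 1 library. Over all genes, 2685 were called with age, 3249 with DESeq2 and 2753 with limma voom. It was 2200 without the filter, 2202 with the contrast's 10 libraries alone and 899 with the block. With genotype 76 were called, 309 with DESeq2, 23 with limma voom and 6 with the block, and 9 to 108 without 1 library. The causes were not tested. Depth limits Cyp2d11 and Cyp2d12, and shared sequence limits Cyp2d10, Cyp2d11, Cyp2d40 and Cyp2d9.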

Other observations

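Beside the Cyp2d family, 41 other Cyp2 genes were found in the table and 29 of them were tested. With age 5 rose, 5 fell and 19 did not pass, where 9.92% of all genes rose and 8.91% fell. The median log2 fold change of the 29 was 0.2. Cyp2c54 fell by 3.35 (edgeR adjusted p = 0.00162), while Cyp2c55 rose by 1.5 and Cyp2a22 by 1.25 (edgeR adjusted p = 0.0347 and 0.0489). With genotype 2 of the 29 were called, both higher in old KO livers, namely Cyp2c54 by 3.36 and Cyp2c40 by 0.65 (both edgeR adjusted p = 0.0223). Cyp2c54 was at 9.48 to 36.2 CPM in old WT and 50.6 to 497 CPM in old KO livers. Cyp2c genes also have close relatives, and their counts are uncertain in the same way.

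Inside the Cyp2d cluster 2 loci outside the list were annotated and tested. Cyp2d37-ps is a pseudogene by its symbol but annotated as protein-coding in GENCODE M1, and 99.1% of its 50-base windows had no second copy. Its level was 19.9 ± 5.55 CPM in young WT, 26.8 ± 4.75 in old WT and 30.6 ± 6.44 in old KO livers. It was higher by 0.62 in old KO against young WT livers (edgeR adjusted p = 0.0243), and its age difference of 0.43 did not pass (adjusted p = 0.112). Gm5062, whose coding sequence is 94.9% identical to that of Cyp2d40, was at a mean of 2.73, 2.58 and 3.11 CPM in young WT, old WT and old KO livers and passed in none of the 3 comparisons.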
